A study of Homo sapiens with 12 samples.

Results

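The 7 genes described here are the Parkinson disease and synuclein genes SNCB, SNCG, PARK7, PINK1, LRRK2, UCHL1 and VPS35, chosen by symbol from the 55765 gene symbols of the count files. RNA was measured in 12 libraries of SH-SY5Y, a human neuroblastoma line cloned from SK-N-SH, and all 12 were made from cells given 10 μM all-trans retinoic acid (ATRA) for 7 days, which drives them towards a neuron-like state. In the co-treatment experiment, 3 libraries came from cells that received hydrogen peroxide (H2O2) together with ATRA throughout those 7 days (co-treated) and 3 from cells given ATRA alone (co-controls). In the pre-treatment experiment, 3 libraries came from cells that received H2O2 for the 72 h before ATRA (pre-treated) and 3 from cells given no H2O2 (pre-controls). The methods give the H2O2 dose as 10 μM and the deposited description as 10 mM. All libraries came from 1 tumour line and cells without ATRA were not analysed here, so a level in these cells is not that of a dopaminergic neuron, and neither source says whether replicates came from separate passages, so the p-values measure the spread between these libraries only.

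These genes meet in a few cellular processes. PINK1 is a kinase that accumulates on the surface of damaged mitochondria, where it phosphorylates ubiquitin, so that the organelle is marked for autophagy. PARK7 encodes DJ-1, a small protein whose reactive cysteine is oxidised by peroxide and which protects cells from oxidative damage. LRRK2 is a kinase of Rab GTPases on endosomes and lysosomes, VPS35 is the core of the retromer that returns cargo from endosomes, and UCHL1 is a neuronal ubiquitin hydrolase that is among the most abundant proteins of the brain. SNCB encodes beta-synuclein, a small protein of the presynaptic terminal, and SNCG encodes gamma-synuclein, a small protein of the same family.

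On hg19, UCHL1 lies on chromosome 4 from 41258430 to 41270472 (plus strand), PARK7 on chromosome 1 from 8014351 to 8045565 (plus), PINK1 on chromosome 1 from 20959951 to 20978004 (plus) and VPS35 on chromosome 16 from 46690044 to 46723430 (minus). LRRK2 lies on chromosome 12 from 40590546 to 40763087 (plus), SNCB on chromosome 5 from 176047083 to 176057557 (minus) and SNCG on chromosome 10 from 88718356 to 88723015 (plus). The genes differ widely in length. The canonical transcript spans 11.5 kb of the genome in UCHL1, 18.1 kb in PINK1, 23.8 kb in PARK7 and 33.0 kb in VPS35, but 144.3 kb in LRRK2, whose spliced transcript has 9239 bases in 51 exons. Some of these loci carry a gene on the other strand. PINK1-AS overlaps PINK1 over 8855 bases, and all of SNCG (4660 bases) lies within the limits of MMRN2. The library kit marks strand, but whether the counting used it is not stated. If it did not, reads in a shared stretch may have been set aside as ambiguous, and the counts of PINK1 and SNCG may be too low. Ambiguous reads numbered 0.0606 to 0.0759 for each read on a gene, and their part in these 2 genes was not tested.

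Between 27576276 and 98287391 reads were counted on genes per library. Pre-control replicate 3 stood apart from its group. Its counts differed from those of the other two pre-controls by a chi-square of 499 and 545 per degree of freedom, against 40.1 between those and 24.8 to 147 within the other groups, where counting error alone gives about 1. It had 0.200 reads outside genes for each read on a gene, against 0.80 and 0.83 in pre-control replicates 1 and 2 and 0.263 to 0.462 in the other 9 libraries. Pre-control replicates 1 and 2 also had 1.58% and 2.88% of their gene counts on small-RNA loci, against 5.04% to 17.6% in the other 10 libraries. The pre-treatment values of the 6 tested genes are therefore given over 6 libraries (3 against 3) and over 5 libraries, without pre-control replicate 3 (2 against 3). Of 99 other genes in 5 lists described further on, 0 passed over 6 libraries, and most of their values are given over 5 alone. The part of these library differences in the results was not tested.

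The genes covered a wide range of levels. Levels are given as TMM-scaled counts-per-million values (CPM) and, to compare genes, as CPM per kb of canonical transcript. Over the 12 libraries, UCHL1 had 498 ± 112 CPM per kb (SD, n = 12), PARK7 101 ± 19.2, VPS35 29.7 ± 4.42 and PINK1 8.59 ± 1.95. LRRK2 had 0.846 ± 0.25 CPM per kb, SNCB 0.393 ± 0.154 and SNCG 0.0572 ± 0.0776. Each gene was above the next in this order in 12 of 12 libraries. The ubiquitin hydrolase and DJ-1 were thus the most abundant of these transcripts in ATRA-treated SH-SY5Y cells.

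**Figure D1:**
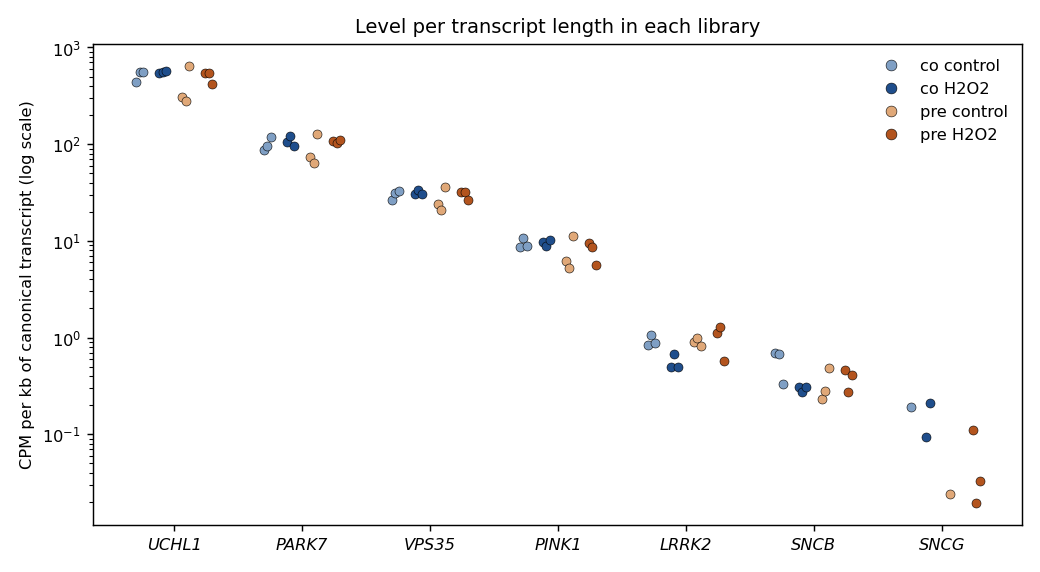
CPM per kb of canonical transcript (vertical axis, log scale) of the 7 genes in each of the 12 libraries (1 point each, coloured by group). The levels run from 498 CPM per kb for UCHL1 (mean of 12) to 0.0572 for SNCG, whose 5 libraries at 0 cannot be drawn on this axis, and the order of the genes is the same in every library.

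The synucleins were scarce. SNCG was counted 29 times in all 12 libraries together, with 0 reads in 5 of them and 10 at most, and 3 reads, the limit that a count of 0 allows for counting error, correspond to 0.0612 CPM in co-control replicate 1, where none was counted. It did not pass the filter on low counts in any comparison and was not tested, so 6 of the 7 genes were. SNCB was counted 379 times, from 12 to 62 reads per library.

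Between libraries, UCHL1 varied by 2.32 times from the lowest to the highest CPM, PARK7 by 2.01, VPS35 by 1.73 and PINK1 by 2.12. The lowest values of UCHL1, PARK7 and VPS35 were those of pre-control replicates 1 and 2, which lay below all other 10 libraries for these 3 genes. Their mean was 0.547 of the mean of the other 10 libraries for UCHL1, 0.635 for PARK7 and 0.722 for VPS35. Of 24407 genes, 14.7% lay below all other libraries in this way and 18.2% above. PINK1 was also low in both (ratio 0.621), but pre-treated replicate 3, at 14.8 CPM, was between them. LRRK2 was close to the others (ratio 1.14). Less RNA per cell and fewer cells of one state cannot be told apart in these bulk libraries.

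**Figure D2:**
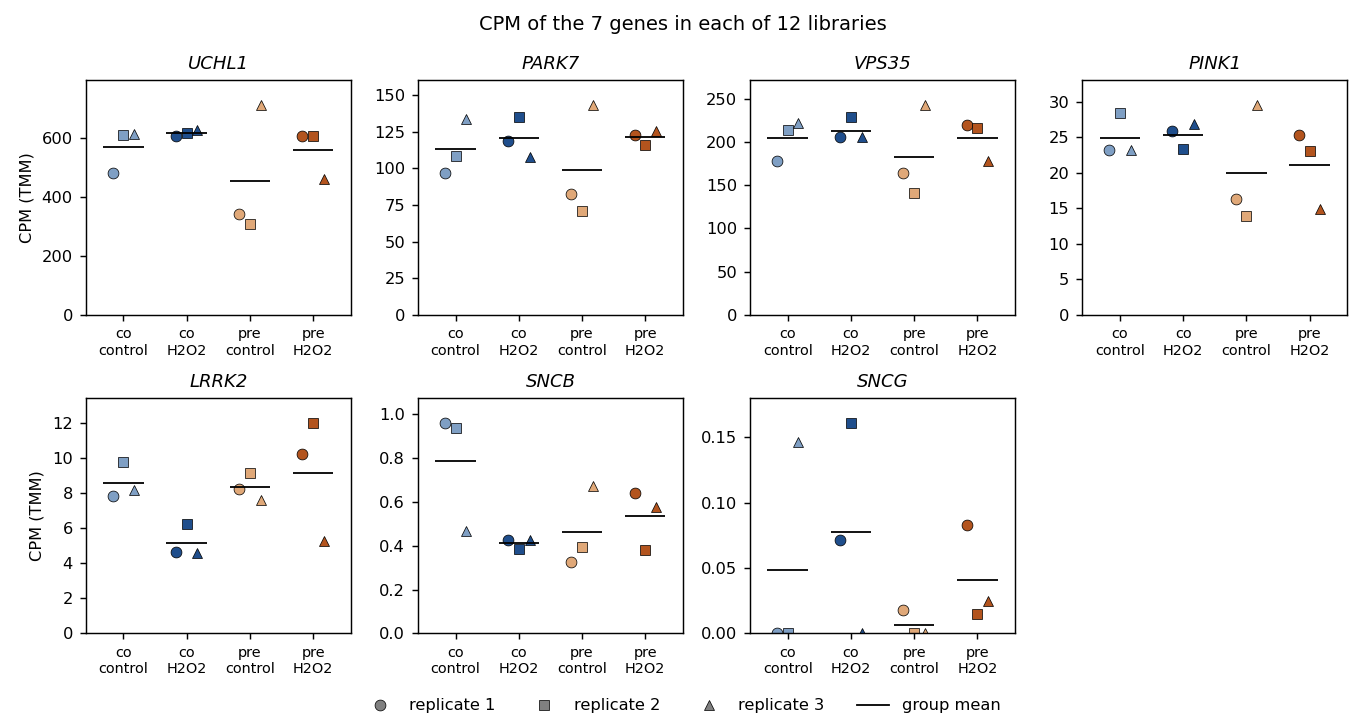
CPM (vertical axes, from 0) of the 7 genes by group, with 1 symbol for each replicate and a line at the group mean (n = 3). In the panels of UCHL1, PARK7 and VPS35, pre-control replicates 1 and 2 sit below every other library, and the LRRK2 panel shows the 3 co-treated libraries, at 4.59 to 6.26 CPM, below the 3 co-controls, at 7.83 to 9.77 CPM.

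When H2O2 was given together with ATRA, 0 of the 6 tested genes passed the test (FDR below 0.05 in edgeR's quasi-likelihood test over 22089 genes, 3 against 3). Over all genes, 0.598% passed in either direction. The lowest FDR was that of LRRK2, which had 7.83, 9.77 and 8.18 CPM in the co-controls and 4.62, 6.26 and 4.59 CPM in the co-treated libraries. The groups did not overlap, and the log2 fold change (log2FC, treated over control) was -0.73 (SE 0.19, 95% interval -1.15 to -0.31), with an unadjusted p = 0.0027 and an FDR of 0.181. Of the 6 genes, 2 had an unadjusted p below 0.05, against 8.15% of all genes. LRRK2 passed with DESeq2 (FDR 0.0379) and without a filter on low counts (FDR 0.0406), but not with edgeR's exact test (0.0654) or limma-voom (0.192), and its log2FC was negative under every alternative tried, from -0.90 to -0.63.

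SNCB, the second gene with an unadjusted p below 0.05, had 0.958, 0.938 and 0.468 CPM in the co-controls and 0.427, 0.385 and 0.428 CPM in the co-treated libraries. Co-control replicate 3 was close to the treated libraries, although the groups did not overlap. With 47, 44 and 16 reads against 12, 24 and 22, its log2FC was -0.94 (SE 0.43, 95% interval -1.88 to 0.00, FDR 0.612). LRRK2 and SNCB were the 2 of the 6 genes whose co-treated libraries were all below the co-controls, a pattern that 7.37% of all genes showed.

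The 4 abundant genes differed little in this experiment. DJ-1 RNA (PARK7), the member most directly tied to peroxide, had 113 ± 18.8 CPM in co-controls and 121 ± 13.8 CPM in co-treated libraries (SD, n = 3 each), a log2FC of 0.10 with a 95% interval from -0.22 to 0.42. UCHL1 had 569 ± 74.9 and 616 ± 10.0 CPM (log2FC 0.12, interval -0.17 to 0.41), VPS35 205 ± 23.5 and 214 ± 13.5 CPM (0.06, interval -0.22 to 0.34) and PINK1 24.9 ± 2.99 and 25.4 ± 1.83 CPM (0.03, interval -0.26 to 0.32). The intervals of these 4 genes leave out changes of more than about 0.42 on the log2 scale in either direction, and their FDR values were 0.899 to 0.987. The signs of PARK7, PINK1 and VPS35 depended on single libraries, with values between -0.03 and 0.00 when co-control replicate 1 was left out.

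When H2O2 was given before ATRA, the result turned on pre-control replicate 3. Over 6 libraries, 0 of the 6 genes passed (0.0242% of 24743 genes did), 0 had an unadjusted p below 0.05 (11.2% of all genes did), and the FDR values ran from 0.686 to 0.924. Over 5 libraries, UCHL1, PARK7 and VPS35 passed as higher in pre-treated cells and 0 of the 6 as lower. In that comparison 26.1% of all 26350 genes passed, 13.2% as higher and 12.8% as lower. In each of these 3 genes both pre-controls lay below all 3 treated libraries, as they did in 25.7% of all genes. The 250 bases before the start of each of these genes, taken from RefSeq (build GRCh38.p14), are printed because the 3 genes passed in one direction. Each is written 5′ to 3′ on the strand of its gene. Capitals mark TGACNNNGC on either strand, the core letters of the antioxidant response element through which oxidants act on many protective genes.
UCHL1 (chr4:41256678-41256927, plus strand): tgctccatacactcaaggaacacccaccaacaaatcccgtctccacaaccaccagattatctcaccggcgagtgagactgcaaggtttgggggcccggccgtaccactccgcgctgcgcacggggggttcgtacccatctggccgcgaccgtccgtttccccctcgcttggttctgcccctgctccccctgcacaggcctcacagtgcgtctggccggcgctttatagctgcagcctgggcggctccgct
PARK7 (chr1:7961461-7961710, plus strand): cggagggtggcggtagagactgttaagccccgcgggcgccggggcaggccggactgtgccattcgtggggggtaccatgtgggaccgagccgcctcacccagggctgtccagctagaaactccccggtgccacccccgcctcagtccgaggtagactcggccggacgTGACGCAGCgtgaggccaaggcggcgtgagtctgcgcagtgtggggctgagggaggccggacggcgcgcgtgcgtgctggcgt
VPS35 (chr16:46689179-46689428, minus strand): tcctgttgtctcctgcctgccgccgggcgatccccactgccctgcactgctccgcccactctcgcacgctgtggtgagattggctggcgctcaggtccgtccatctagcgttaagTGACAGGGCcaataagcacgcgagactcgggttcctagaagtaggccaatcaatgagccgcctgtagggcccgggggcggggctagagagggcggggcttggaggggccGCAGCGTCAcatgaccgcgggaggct

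The letters were found at 1 place in the PARK7 window, at 2 in that of VPS35 and at 0 in that of UCHL1. They also occurred at 1 place in the window of SNCB and at 0 in those of LRRK2 and SNCG, and 10.9% of 35116 RefSeq promoter windows of this length held them. Of the 7 genes, 6 had an entry, and PINK1 had none. The 3 windows are rich in G and C (64.4% in UCHL1, 71.6% in PARK7 and 66.0% in VPS35, against a median of 58.0% over all windows). Other letters were also sought on either strand. TATAAA was found in none but the window of UCHL1 among these 6 genes, and 10.7% of all windows held it. In UCHL1 it lay on the strand opposite to the gene, as TTTATA in the printed window, so it is not a TATA box in the direction of UCHL1. CCAAT was found at 3 places in the window of VPS35 and at 0 in those of the other 5 genes, against 32.0% of all windows with at least 1. A match of letters is a description and not a site of binding, and binding was not measured.

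UCHL1 had 342, 307 and 712 CPM in pre-control replicates 1 to 3 and 606, 607 and 461 CPM in the pre-treated libraries. Replicates 1 and 2 were below all treated libraries and replicate 3 was above them. The log2FC was 0.31 over 6 libraries (SE 0.34, 95% interval -0.47 to 1.10, FDR 0.745) and 0.85 over 5 (SE 0.16, FDR 0.00702), a rise of 1.80 times. It was 0.78 with an FDR of 0.0641 when pre-control replicate 2 was left out as well.

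PARK7 had 82.4, 71.2 and 143 CPM in the pre-controls and 123, 116 and 126 CPM in the pre-treated libraries, with the same arrangement. The log2FC was 0.31 over 6 libraries (SE 0.27, interval -0.31 to 0.94, FDR 0.686) and 0.73 over 5 (SE 0.12, FDR 0.00453), a rise of 1.66 times. Among the 3 genes it was the one that passed over 5 libraries under all alternatives with that call rule, each library left out included.

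VPS35 had 164, 141 and 243 CPM in the pre-controls and 219, 216 and 178 CPM in the pre-treated libraries. The log2FC was 0.18 over 6 libraries (SE 0.24, FDR 0.79) and 0.49 over 5 (SE 0.14, FDR 0.0324), a rise of 1.41 times. It no longer passed when any library but pre-treated replicate 3 was left out, with FDR values of 0.0503 (without pre-control replicate 1) to 0.201 (without pre-control replicate 2). Scaling by library size alone, which moved the median log2FC of all genes from 0.01 to -0.21, gave 0.27 (FDR 0.176) for VPS35, 0.63 (FDR 0.0192) for UCHL1 and 0.51 (FDR 0.0186) for PARK7.

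The other tested genes did not pass in either version. PINK1 had 16.3, 13.9 and 29.6 CPM in the pre-controls and 25.3, 23.0 and 14.8 CPM in the pre-treated libraries, so the lowest treated library overlapped the controls. Its log2FC was 0.10 over 6 libraries (FDR 0.924) and 0.55 over 5 (SE 0.23, unadjusted p = 0.0444, FDR 0.114), and 0.71 (FDR 0.00934) over the latter without pre-treated replicate 3. LRRK2 had 8.23, 9.15 and 7.60 CPM in the pre-controls and 10.3, 11.98 and 5.27 CPM in the pre-treated libraries, which lay on both sides of the controls (log2FC 0.17 over 6 libraries and 0.15 over 5, FDR 0.844 and 0.758). SNCB had 0.326, 0.394 and 0.671 CPM and 0.642, 0.382 and 0.576 CPM (log2FC 0.22 and 0.65, FDR 0.873 and 0.296).

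**Figure D3:**
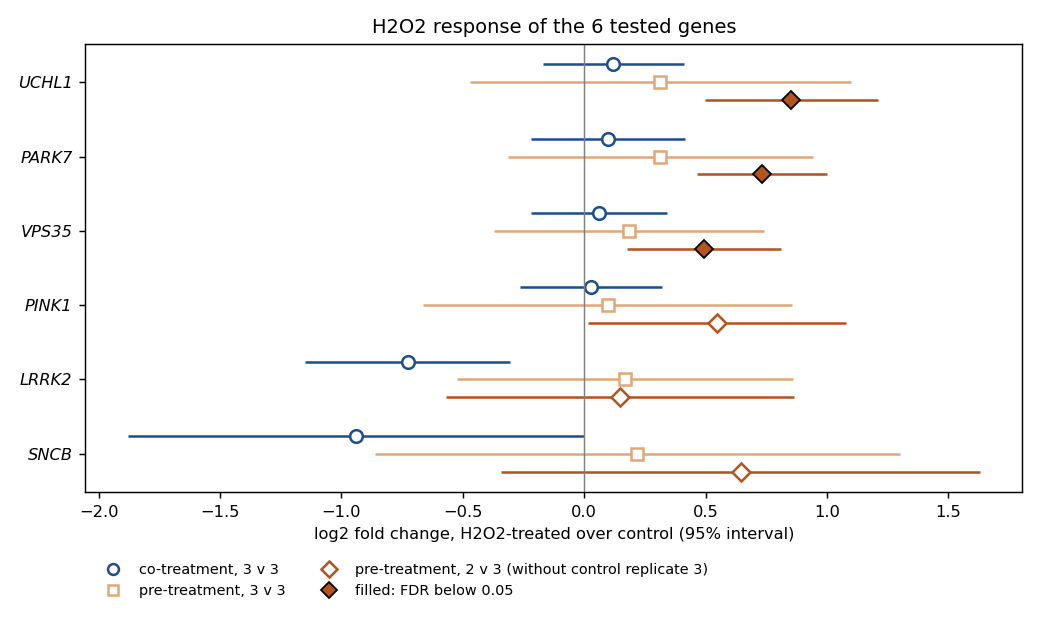
Log2FC of H2O2-treated over control libraries (horizontal axis) with 95% intervals for the 6 tested genes, over the co-treatment libraries (circles), the 6 pre-treatment libraries (squares) and the 5 without pre-control replicate 3 (diamonds). Filled symbols mark an FDR below 0.05, reached by UCHL1, PARK7 and VPS35 over 5 libraries alone, while the interval of LRRK2 is below 0 after co-treatment and spans 0 after pre-treatment.

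Whether the responses differed between the experiments was examined with an interaction term. Over 12 libraries, 0 of the 6 genes passed (0.0287% of 24407 genes did) and LRRK2 had the lowest unadjusted p (0.0343), with a difference of 0.87 on the log2 scale, pre-treatment minus co-treatment (SE 0.37, 95% interval 0.07 to 1.67, FDR 0.545). Over 11 libraries, 0 of the 6 passed as well, against 8.02% of 25668 genes. The difference was 1.53 for SNCB (SE 0.59, FDR 0.113), 0.68 for UCHL1 (SE 0.21, FDR 0.056), 0.58 for PARK7 (SE 0.20, FDR 0.0808), 0.82 for LRRK2 (SE 0.38, FDR 0.173), 0.47 for PINK1 (SE 0.27, FDR 0.27) and 0.38 for VPS35 (SE 0.19, FDR 0.21). UCHL1 passed over 11 libraries with DESeq2 (FDR 0.0263) and limma-voom (FDR 0.0432). Without a filter on low counts, edgeR's test passed UCHL1 (FDR 0.0164) and PARK7 (FDR 0.0402). With the filter, edgeR's test did not show the rise of UCHL1, PARK7 and VPS35 over the 5 pre-treatment libraries to differ from the small differences after co-treatment. For UCHL1 and PARK7 this depended on the settings.

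The log2FC values over the 5 pre-treatment libraries were also set beside the length of the genes, a view chosen after these values had been seen and limited to genes above 1 log2 CPM, which leaves out SNCB. UCHL1 (0.85), PARK7 (0.73) and PINK1 (0.55) span 10 to 30 kb, VPS35 (0.49) 30 to 100 kb and LRRK2 (0.15) 100 to 300 kb. The median log2FC of all genes above that level was lower in each longer class, from 0.24 in 3613 genes of 10 to 30 kb to 0.10 in 3876 genes of 30 to 100 kb, -0.10 in 1785 of 100 to 300 kb and -0.22 in 457 longer genes. UCHL1, PARK7 and PINK1 were above the upper quartile of theirs (0.51), as was VPS35 (0.38). Over 6 libraries the medians ran from 0.07 to -0.13 over the same classes, and after co-treatment all were -0.02. The part of transcript length in the values of these genes was not tested. Of the genes above this level, 89.2% had a span in the annotation.

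**Figure D4:**
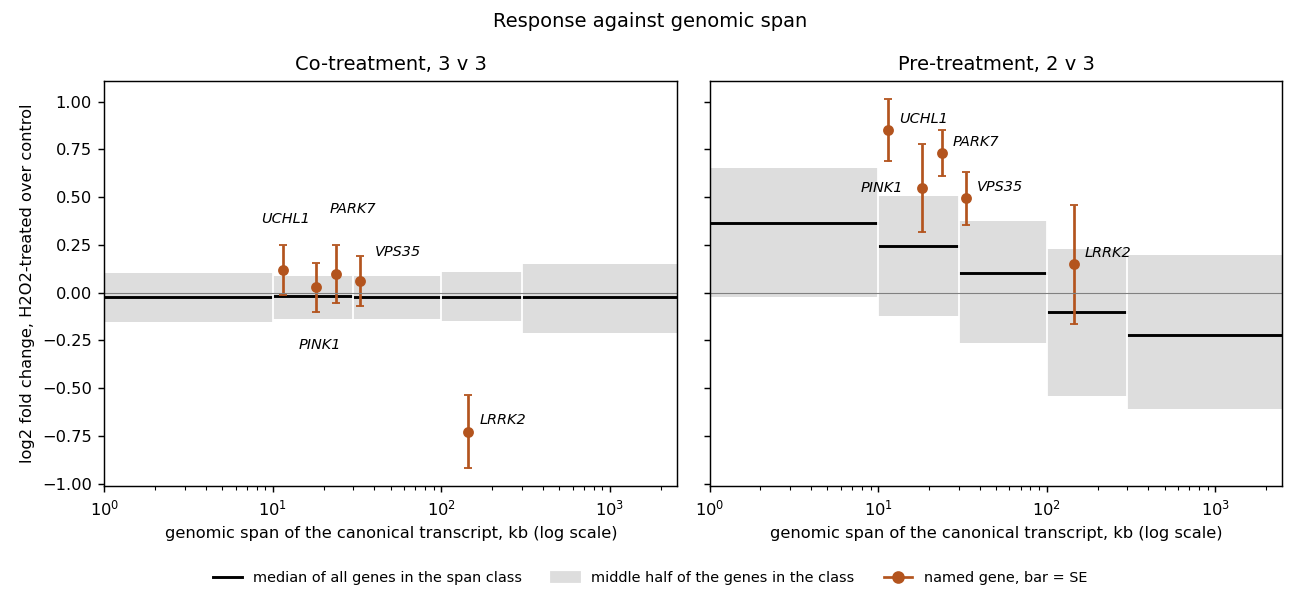
Log2FC (vertical axis) against the genomic span of the canonical transcript (horizontal axis, log scale) for UCHL1, PINK1, PARK7, VPS35 and LRRK2 (points, bars are SE), over the class medians (lines) and quartiles (grey) of all genes above 1 log2 CPM. After co-treatment the class medians are flat and LRRK2 alone is far below its class, whereas over the 5 pre-treatment libraries the class medians run from 0.36 under 10 kb to -0.22 over 300 kb.

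Genes that work with PINK1 were described next, in a list of 32 genes of mitochondrial import, mitochondrial dynamics and mitophagy. After co-treatment 0 of 32 passed, with a median log2FC of 0.03. The lowest unadjusted p values were those of BNIP3L (log2FC -0.35, FDR 0.43) and BNIP3 (-0.20, FDR 0.791), both mitophagy receptors, and LONP1, a protease of the matrix (-0.22, FDR 0.791). After pre-treatment 0 of 32 passed over 6 libraries and 12 passed as higher and 1 as lower over 5, beside 13.2% and 12.8% of all genes. The median log2FC over 5 was 0.41 against 0.01 for all genes. The higher genes included the import receptors TOMM20 (0.57, FDR 0.0187) and TOMM22 (0.88, FDR 0.00354), TOMM7, which holds PINK1 at the outer membrane (0.81, FDR 0.0041), PMPCB, a subunit of the peptidase that cleaves imported PINK1 (0.76, FDR 0.00456), the mitofusin MFN1, a GTPase of outer-membrane fusion (0.64, FDR 0.0106), and the 3 channel genes VDAC1, VDAC2 and VDAC3 (0.44, 0.61 and 0.84). AMBRA1, an autophagy scaffold, fell by 0.60 (FDR 0.00777). The remaining higher genes were OMA1 (0.86), PHB2 (0.71), TOMM70A (0.54) and RHOT1 (0.48). Of the genes that passed, all but PMPCB, MFN1 and AMBRA1 were named after their values were seen. TOMM20, VDAC1, AMBRA1, MFN1, OMA1, TOMM70A and RHOT1 lost their calls under at least 1 alternative. Those of AMBRA1 and MFN1 were lost without pre-control replicate 2, which leaves 1 control library, and that of PMPCB was kept there.

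The retromer is a complex of VPS35 with VPS29 and VPS26A or VPS26B, and its subunits did not follow VPS35 alike. Over the 5 pre-treatment libraries VPS29 rose by 0.58 on the log2 scale (SE 0.14, FDR 0.019), close to VPS35, whereas VPS26A had -0.21 (SE 0.11, FDR 0.178) and VPS26B -0.03 (SE 0.11, FDR 0.874). VPS29 no longer passed without pre-control replicate 2 (0.45, FDR 0.138). Over 6 libraries the values were 0.36, -0.19 and -0.13, with FDR values of 0.532 to 0.768, and after co-treatment -0.16, -0.12 and 0.07 (FDR 0.866 to 0.934). Of 22 genes of the retromer and of endosomal sorting, 5 passed as higher over the 5 libraries and 3 as lower. Of all genes, 13.2% and 12.8% did, so the number of lower genes was near the share of all genes. The other higher genes, named after their values were seen, were the sorting nexins SNX3 (0.61), SNX6 (0.59) and SNX12 (0.54, FDR 0.0365) and the smaller mannose 6-phosphate receptor M6PR (0.69). Each of these genes lost its call under at least 1 alternative. The lower genes were IGF2R, the large mannose 6-phosphate receptor that retromer returns to the Golgi (-1.59, SE 0.12, FDR 0.000822), SNX27, which links retromer to recycling cargo (-0.62, FDR 0.00639), and RAB7A, the GTPase that recruits retromer to endosomes (-0.56, FDR 0.00657). IGF2R had a mean of 400 CPM in pre-control replicates 1 and 2 and 126 CPM in pre-treated cells, kept its call with each of the 5 libraries left out (FDR 0.00048 to 0.0068), and had -1.24 (FDR 0.328) over 6 libraries. SNX27 and RAB7A lost their calls without pre-control replicate 2 (FDR 0.0648 and 0.053). After co-treatment 0 of the 22 passed, and the lowest unadjusted p values belonged to SNX1 (-0.23), SNX12 (0.26) and SNX5 (0.19), with FDR values of 0.718 to 0.802.

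LRRK2 was compared with 24 genes of its paralog, its partners and its Rab substrates. After co-treatment, when LRRK2 was lowest, 0 of the 24 passed. PPM1H, the phosphatase that removes the phosphate LRRK2 places on Rab proteins, had 5, 1 and 1 reads in the co-controls and 13, 35 and 27 in the co-treated libraries, a log2FC of 3.23 (SE 0.68, FDR 0.0651) that rests on these few reads and passed with DESeq2 (FDR 0.0105) and edgeR's exact test (FDR 0.000361). RAB43 (-0.97, FDR 0.423) and RAB3D (-0.39, FDR 0.49) were lower in all 3 co-treated libraries without passing, a pattern that 7.37% of all genes showed. The paralog LRRK1 had -0.11 (FDR 0.957). Over the 5 pre-treatment libraries 5 of the 24 passed as higher, namely RAB8B (0.47), RAB10 (0.43), RAB7L1 (0.66) and the 14-3-3 genes YWHAH (0.49) and YWHAQ (0.38), and 4 as lower, namely LRRK1 (-1.04, FDR 0.0257), GAK (-0.43, FDR 0.0301), RAB3A (-0.98) and RAB3B (-0.90), all but LRRK1 and GAK named after their values were seen. Each of these calls, higher and lower, was lost under at least 1 alternative. Those of LRRK1 and GAK were lost without pre-control replicate 2, which leaves 1 control library. Of all genes, 13.2% passed as higher and 12.8% as lower in that comparison. Over 6 libraries 0 of the 24 passed, with LRRK1 at -0.78 (FDR 0.471).

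Genes of UCHL1's own kind were few. The closest paralog UCHL3 had a mean of 1.19 CPM in co-controls, and its log2FC was 0.12 after co-treatment, 0.10 over 6 pre-treatment libraries and 0.09 over 5 (FDR 0.972, 0.908 and 0.836). UCHL5 and BAP1 had values from -0.16 to 0.10 in these 3 comparisons, with FDR values of 0.591 to 0.937. Of the 5 genes in a list of ubiquitin hydrolases and ubiquitin genes, 2 passed as higher over the 5 pre-treatment libraries and 0 as lower, beside 13.2% and 12.8% of all genes. The 2 were UBB, which encodes a chain of ubiquitin units (0.84, FDR 0.00358), and RPS27A, which encodes ubiquitin fused to a ribosomal protein (0.51, FDR 0.0255). RPS27A no longer passed without pre-control replicate 2 (FDR 0.165), and 0 of the 5 passed over 6 libraries or after co-treatment.

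Among 16 other genes of familial or early-onset parkinsonism, GCH1 was the one that passed after co-treatment. It encodes the enzyme that starts the synthesis of tetrahydrobiopterin, a cofactor needed to make dopamine. It had 141, 171 and 194 CPM in the co-controls and 108, 95.4 and 99.4 CPM in the co-treated libraries, and fell by 0.74 on the log2 scale (SE 0.14, FDR 0.0329). The groups were well apart, but the call was lost when any library other than co-control replicate 1 was left out (FDR 0.0785 to 0.303). In the pre-treatment experiment GCH1 had 107, 131 and 143 CPM in the controls and 124, 143 and 116 CPM in the treated libraries, which overlap (log2FC 0.03 over 6 libraries and 0.17 over 5). The difference between experiments was 0.86 over 11 libraries (FDR 0.0252) and 0.75 over 12 (FDR 0.462). POLG (-0.17) and GIGYF2 (-0.14) followed after co-treatment without passing. Over the 5 pre-treatment libraries, CHCHD2 (0.74), HTRA2 (0.64) and TMEM230 (0.46) passed as higher, and SYNJ1 (-0.75), VPS13C (-0.44), LRP10 (-0.86, FDR 0.0325), EIF4G1 (-0.59, FDR 0.0245) and the lysosomal ATPase ATP13A2 (-0.43, FDR 0.0378) as lower. Of all genes, 13.2% passed as higher and 12.8% as lower in that comparison. CHCHD2, HTRA2, TMEM230, SYNJ1 and VPS13C were named after their values were seen. HTRA2, TMEM230 and VPS13C lost their calls under at least 1 alternative. LRP10, EIF4G1 and ATP13A2 lost theirs without pre-control replicate 2, which leaves 1 control library. Over 6 libraries 0 of the 16 passed.

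**Figure D5:**
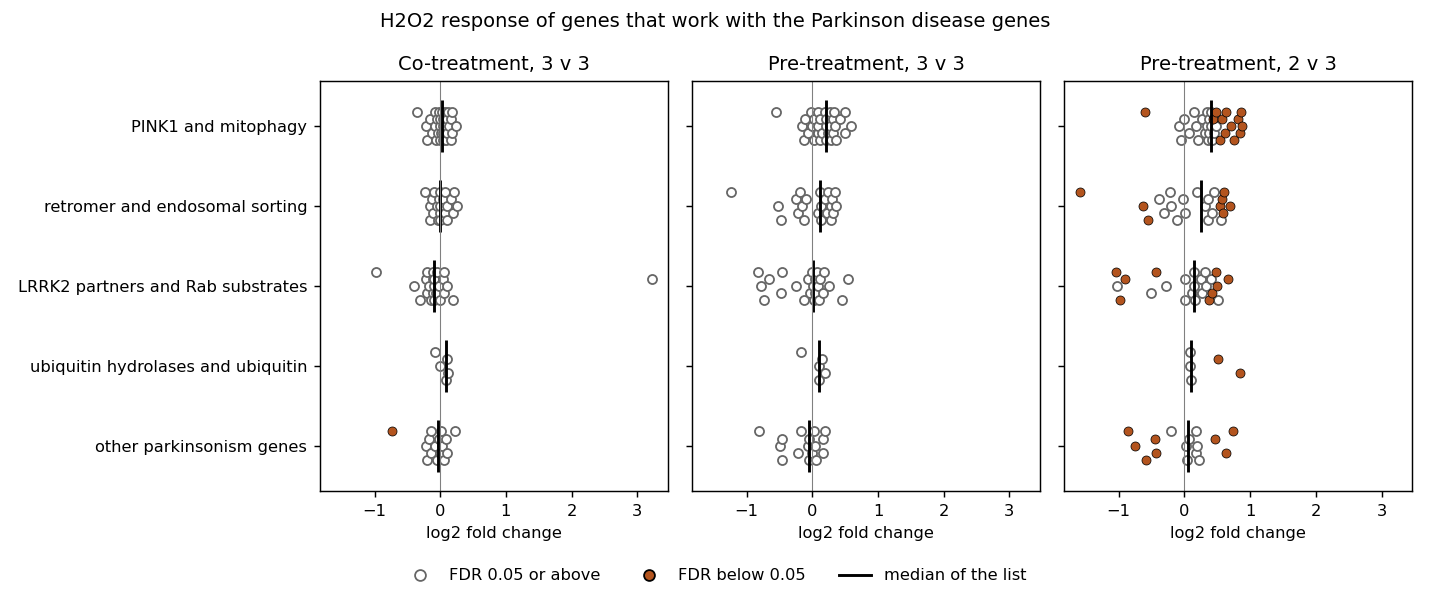
Log2FC (horizontal axis) of each tested gene (points) in 5 lists of genes that work with the Parkinson disease genes, in the co-treatment comparison and the pre-treatment comparison over 6 and 5 libraries. Filled points passed at an FDR below 0.05 and vertical lines are list medians, from -0.10 to 0.09 after co-treatment, where 1 point is filled, and from 0.05 to 0.41 over the 5 pre-treatment libraries.

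Over these 5 lists together, 27 of 99 genes passed as higher and 13 as lower over the 5 pre-treatment libraries, beside the 13.2% and 12.8% of all genes, and 0 and 1 after co-treatment. Of the 40 genes, 10 still passed without pre-control replicate 2, 29 without pre-control replicate 1 and 17, 22 and 39 without pre-treated replicates 1, 2 and 3.

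The identity of the cells was checked with markers of the noradrenergic state of neuroblastoma and of the mesenchymal-type state. PHOX2A, HAND2 and DBH were abundant, with group means from 174 to 609 CPM, whereas TH, the tyrosine hydroxylase that starts catecholamine synthesis, was near 0, with group means of 0.031 to 0.159 CPM. The summed level of the 5 noradrenergic genes was 1252 to 1770 CPM in co-controls and 947 to 1279 CPM in co-treated libraries, and 1086 to 1924 CPM in pre-controls and 674 to 963 CPM in pre-treated libraries. Of the 4 tested, 0 passed after co-treatment and over 6 pre-treatment libraries, and 3 passed as lower over 5 (PHOX2A, GATA3 and DBH), beside 12.8% of all genes. These 3 did not pass without pre-control replicate 2, which leaves 1 control library. The summed level of the 6 mesenchymal-type genes was 91.5 to 201 CPM in co-controls and 191 to 206 CPM in co-treated libraries, and 134 to 264 CPM in pre-controls and 132 to 190 CPM in pre-treated libraries. In this list VIM rose in both experiments, from 7.27 ± 2.24 to 16.2 ± 1.39 CPM after co-treatment (FDR 0.0272) and from 4.04 ± 0.967 to 21.3 ± 1.73 CPM after pre-treatment (SD, n = 3 each, FDR 0.0442 over 6 libraries). The call of VIM was lost after co-treatment when any library but co-control replicate 1 was left out (FDR 0.0664 to 0.205), with library size only (0.0625) and with 1 fit over both experiments (0.163), and over 6 pre-treatment libraries with limma-voom (0.0797), a replicate block (0.491) and any library but pre-control replicate 3 left out (0.178 to 0.408). Over 5 pre-treatment libraries VIM had 2.66 (FDR 0.000718) and kept its call under every alternative tried. CD44 passed over those 5 (1.11, FDR 0.0331), but not over 6 (1.25, FDR 0.32) or without pre-control replicate 2 (FDR 0.198), and PRRX1 was at or near 0. The other members of the list did not rise alike. FN1 had means of 109 and 155 CPM in co-controls and co-treated libraries, but 152 and 118 CPM in pre-controls and pre-treated libraries. SNAI2 had group means of 20.2 to 23.2 CPM. COL1A1 was scarce, with 0.776 and 0.254 CPM after co-treatment and 0.836 and 0.535 CPM after pre-treatment (control, then treated). None of these passed in either experiment. The part of these markers in the values of the 7 genes was not tested.

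For each gene with a mean of at least 1 CPM, the genes whose log2 CPM was most alike over the 12 libraries were sought among those with at least 5 CPM. These were PSMB4 and CCDC115 for UCHL1 (Pearson r = 0.990 and 0.988), HNRNPC and RPS12 for PARK7 (0.991 and 0.988), RP11-620J15.3 and GNPAT for VPS35 (0.986 and 0.983) and TLCD1 and TMUB2 for PINK1 (0.974 for both). For LRRK2 they were MPP4 and PDGFD (0.946 and 0.898). These are descriptions over 12 points that share library, depth and scaling, and the separate position of pre-control replicates 1 and 2 enters all of them.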

How the data were processed

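Total RNA of 12 samples was freed of ribosomal RNA and sequenced (TruSeq Stranded Total RNA). The authors trimmed reads with cutadapt 2.10, mapped them to hg19 with HISAT2 2.1.0 and counted them per gene with HTSeq 0.7.2, and they deposited raw counts without normalization or filtering. The strand setting and annotation version are not given in the sources used here. The closing entries for reads not assigned to a gene were kept out of library sizes and tests. The authors' tables of fold changes and p-values were not used. The tests were run with edgeR 4.0.16 (TMM factors, quasi-likelihood test, 2 or 3 libraries per group) under R 4.3.3. A gene was tested where enough libraries to fill the smaller group reached a CPM floor, set at 5 counts for the smallest library. Benjamini-Hochberg adjustment ran over all genes tested. Alternatives used limma 3.58.1 (voom), DESeq2 1.42.0, other scalings, no filter, edgeR's exact test, a replicate block, 1 fit over both experiments and each library left out. Scripts were tested on simulated data. Positions and lengths come from a GENCODE annotation lifted to hg19, in which all 7 genes matched.

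The 7 genes and all lists were chosen with earlier results of these data known, and some genes of the set and of the lists are not reported here. From each list, the 3 genes with the lowest unadjusted p in the co-treatment test and in the 6-library pre-treatment test were named, with direct partners, paralogs and neighbours of the 7 genes and the 2 most alike genes. Intervals and limits cover counting error or the spread between libraries only.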

Additional observations from a re-analysis of the deposited data

Results flagged for a closer look

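For 12 of the genes in the lists above, the response differed between the experiments at an FDR below 0.05 in edgeR's quasi-likelihood test of the difference over 11 libraries, without pre-control replicate 3, and for 0 of them over all 12. Each of these calls ended under at least 1 alternative. Without pre-control replicate 2, those of GCH1 and VIM were kept, without pre-control replicate 1 that of IGF2R, and with library size only those of IGF2R, SYNJ1 and VIM. With DESeq2, limma-voom or co-control replicate 1 left out, all 12 were kept, and leaving out any other library kept 2 to 10 of them. The difference is given on the log2 scale, pre-treatment minus co-treatment. It was positive for the mitochondrial genes TOMM22 (0.82), PHB2 (0.71), PMPCB (0.66), TOMM20 (0.65), CHCHD2 (0.63) and VDAC2 (0.56), for the ubiquitin gene UBB (0.68) for GCH1, the entry enzyme of tetrahydrobiopterin synthesis (0.86), and for the markers HAND2 (0.75) and VIM (1.44). It was negative for IGF2R (-1.65) and for SYNJ1, a phosphoinositide phosphatase of synaptic vesicle recycling (-0.81). Of the 99 genes of the 5 lists, 8 passed with a positive difference and 2 with a negative one. HAND2 and VIM were each 1 of 5 tested genes of their marker list. In the noradrenergic list HAND2 was the 1 gene with a positive difference, 4 were negative and the median was -1.06. Its mean went from 513 to 342 CPM in the co-treatment experiment and from 382 to 394 CPM (3 pre-controls) in the pre-treatment experiment. In the mesenchymal-type list 3 differences were positive and 2 negative, with a median of 0.01. Of all 25668 genes, 8.02% differed in this way, so the share in the 5 lists was near that of all genes. The experiments have separate controls. The 2 pre-controls in this test had 0.80 and 0.83 reads outside genes for each read on genes, against 0.263 to 0.462 in the other libraries of the test, and the part of this in the differences was not tested.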

How the results depend on the processing

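Counts are given as genes of the 6 tested and, in brackets, as genes of all tested that had an FDR below 0.05. After co-treatment (0 of the 6, 132 of all), the count was 1 with DESeq2 (342) and 1 without a filter (535), LRRK2 each time, and 0 with library size only (80), edgeR's exact test (333) and 1 fit over both experiments (3), and 0 with each library left out (18 to 223, the extremes without co-treated replicate 3 and co-control replicate 1). Over 6 pre-treatment libraries (0, 6), it was 0 with library size only (1), no filter (319), DESeq2 (705), limma-voom (0), edgeR's exact test (271) and 1 fit (68), and 0 to 3 with a library left out (0 to 6871), the 3 and the 6871 without pre-control replicate 3. Over 5 libraries (3, 6871), it was 0 with an absolute log2FC above 1 (2952) and 1 to 4 with a library left out (1677 to 8577), the lowest without pre-control replicate 2 and the highest without pre-treated replicate 3. For the difference between experiments over 12 libraries (0, 7), it was 0 with library size only (4), no filter (272), DESeq2 (106), limma-voom (2) and a library left out (0 to 2058). Over 11 libraries (0, 2058) it was 2 without a filter (3847), 1 with DESeq2 (3483), 1 with limma-voom, and 0 to 2 with a library left out (321 to 4499), 2 without co-control replicate 1 or pre-treated replicate 3. The cause of these shifts was not tested.

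The replicate numbers were not shown to pair the libraries. Deviations of same-numbered control and treated libraries from their group means correlated by 0.0255, -0.0401 and -0.102 under co-treatment, and by -0.233, 0.0458 and -0.269 under pre-treatment. In 0 of 6 cases did a control correlate best with the treated library of its own number. With a replicate block, 0 of the 6 genes passed after co-treatment (181 of all genes) and 0 over 6 pre-treatment libraries (0 of all). Over the 5 libraries 5 passed (10755 of all), PINK1 (0.75, FDR 0.000207) and LRRK2 (0.42, FDR 0.0484) with UCHL1, PARK7 and VPS35. For the difference, 0 passed over 12 libraries (0 of all) and 2 over 11 (2684 of all), LRRK2 and UCHL1, where 0 did without the block. Without pre-control replicate 3, pre-treated replicate 3 is alone in its block. The pre-treatment effect in these block fits over 5 and 11 libraries therefore rests on replicates 1 and 2. The library so set aside had the lowest PINK1 (14.8 CPM) and LRRK2 (5.27 CPM) of the pre-treated libraries.

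The signs that changed belonged to log2FC values of at most 0.182 in size, 0 of which had an FDR below 0.05. With library size only, GCH1 over 6 pre-treatment libraries (-0.014) and LRRK2 (-0.0754), BAP1 (-0.138), UCHL3 (-0.127), GCH1 (-0.045) and UCHL5 (-0.126) over 5 turned. So did UCHL5 over 5 libraries with the block (-0.0331). With a library left out after co-treatment, PARK7 ran from -0.00104 to 0.233, PINK1 from -0.0233 to 0.125, VPS35 from -0.0281 to 0.123, UCHL3 from -0.0742 to 0.288, BAP1 from -0.0353 to 0.216, LRRK1 from -0.254 to 0.131 and PINK1-AS from -0.0587 to 0.112. Over 6 pre-treatment libraries, PINK1 ran from -0.117 to 0.547, LRRK2 from -0.0507 to 0.441, BAP1 from -0.267 to 0.0813, UCHL3 from -0.0205 to 0.266, UCHL5 from -0.0291 to 0.178, ORC6 from -0.179 to 0.35 and GCH1 from -0.0863 to 0.173. Over 5 libraries, LRRK2 ran from -0.0845 to 0.392, VPS26B from -0.0817 to 0.0535, UCHL3 from -0.148 to 0.416 and UCHL5 from -0.0689 to 0.169. For the difference over 12 libraries, PINK1 ran from -0.134 to 0.465, UCHL1 from -0.0203 to 0.678 and VPS35 from -0.035 to 0.378. SNCG had 29 reads over the 12 libraries, too few to be tested, and SNCB had 379.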

Other observations

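The genes next to the 7 loci were 14 by symbol, of which 12 were tested. Over the 5 pre-treatment libraries ORC6, which starts 481 bases from VPS35 on the other strand, had a log2FC of 0.35 (SE 0.20, FDR 0.235). PINK1-AS had 0.37 (SE 0.20, FDR 0.199), and UCHL1-AS1 was not tested, with 1 to 11 reads per library beside 14040 to 58552 for UCHL1. After co-treatment these values were 0.26 for ORC6 and 0.02 for PINK1-AS, with FDR values of 0.688 to 0.992, and over 6 pre-treatment libraries 0.05 and 0.26, with FDR values of 0.666 to 0.956.

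Of the 12 neighbours, 4 passed as higher over the 5 pre-treatment libraries and 0 as lower, beside 13.2% and 12.8% of all genes. They were DDOST next to PINK1 (0.62, FDR 0.00635, named after its value was seen), ERRFI1 (0.55, FDR 0.0442) and TNFRSF9 (2.76, FDR 0.00519) near PARK7, and MUC19 near LRRK2 (1.56, FDR 0.0292). Over 6 libraries DDOST had 0.17, ERRFI1 0.34 and MUC19 1.52 (FDR 0.833, 0.577 and 0.32), and without pre-control replicate 2 these 3 did not pass among the 5 libraries (FDR 0.0517, 0.257 and 0.164). TNFRSF9, a receptor of the tumour necrosis factor family, had group means of 0.156 CPM in pre-controls and 1.09 CPM in pre-treated cells, and over 6 libraries its log2FC of 2.81 had an FDR of 0.187, with DESeq2 (5.47e-05) and edgeR's exact test (0.000177) below the threshold. After co-treatment 0 of the 12 passed, and TNFRSF9 (1.19), MUC19 (1.66) and C16orf87 next to ORC6 (-0.43) had the lowest unadjusted p values, with FDR values of 0.373 to 0.582.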
